A study of Saccharomyces cerevisiae with 24 samples.

Results

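The hexose transporters and glucose sensors of budding yeast were followed across aneuploid strains through 6 genes, namely the transporters HXT2 (YMR011W), HXT3 (YDR345C), HXT6 (YDR343C) and HXT7 (YDR342C), and the glucose sensors RGT2 (YDL138W) and SNF3 (YDL194W). The 6 genes were taken by their ORF names, among 6033 nuclear ORFs in the processed data, and all 6 passed the filter on low values (a mean RPKM of at least 1 over 12 libraries) in both mRNA and ribosome footprints. RPKM is the read number scaled to coding length and to the mapped reads of the library, so levels of different genes are comparable per length. As the paper describes, values of aneuploid strains were then divided by their median ratio to the euploid strain over nonduplicated chromosomes. Levels in aneuploid strains are therefore relative to WT and not plain shares of a library's reads. HXT2 lies on chromosome XIII, which 2 of the strains carried in an extra copy, and the other 5 genes lie on chromosome IV, which no strain had duplicated.

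The study asked how haploid cells with additional chromosomes transcribe and translate their genes. Total mRNA and ribosome-protected fragments (FP) were sequenced from 12 cultures, 24 libraries in all, of strains of the S288C background grown in rich glucose medium (YPD) at 25 °C. A first run held WT, D2 and D1/2, and a second run held another WT culture with both D13 strains (KLY195 and KLY196), D1/8, D1/2/8/11 and D1/2/8. Of these, D1/8, D1/2/8/11 and D13 KLY195 had 2 cultures each and the other groups 1.

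Each aneuploid strain was a single isolate that went back to meiosis of odd-ploidy S288C cells, with the named chromosomes present in an additional copy on a haploid set, and WT was haploid with the markers ura3, his3, trp1, leu2 and LYS2. The name of a strain gives its duplicated chromosomes: II in D2 (NVY1), I and II in D1/2 (NVY2), I, II and VIII in D1/2/8 (NVY3), I, II, VIII and XI in D1/2/8/11 (KLY193), I and VIII in D1/8 (KLY194), and XIII in both D13 strains. WT (RLY2626) and all strains other than D13 were of mating type MATa, whereas both D13 strains were MATalpha, so the extra chromosome XIII and the mating type cannot be told apart. D1/2/8 carried the CAK1 substitution L147F. D13 KLY196 carried CAK1 L147F and SEC24 M266R. In D1/8, D1/2/8/11 and D13 KLY195 these substitutions were given as repaired with marker cassettes (trp for CAK1, and also leu in D13 KLY195 for SEC24).

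Yeast takes up glucose by facilitated diffusion through a family of plasma membrane transporters that differ in affinity. Hxt3 is a low-affinity carrier used when glucose is plentiful, whereas Hxt2, Hxt6 and Hxt7 are high-affinity carriers used when it becomes scarce. Snf3 and Rgt2 resemble the carriers but do not transport: with long cytoplasmic tails they report low and high external glucose, respectively. Their signal leads to degradation of Mth1 and Std1, corepressors that act with the DNA-binding repressor Rgt1 at HXT promoters, while Mig1 with the corepressors Cyc8 and Tup1 represses the high-affinity genes when glucose is high.

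HXT6 and HXT7 have almost the same coding sequence, which limits how far their values can be separated. Over 1713 bases they differed at 3 positions counted from the A of the start codon (T1632C, G1666A and T1677C, with the base of HXT6 given first). All 3 fall in the following 70-base stretch of sacCer3, from coding positions 1620 to 1689, where the capitals mark the bases that differ (HXT6 at chrIV:1159632-1159701, HXT7 at chrIV:1154240-1154309, both on the minus strand).
HXT6: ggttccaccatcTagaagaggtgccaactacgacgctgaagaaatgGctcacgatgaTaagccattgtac
HXT7: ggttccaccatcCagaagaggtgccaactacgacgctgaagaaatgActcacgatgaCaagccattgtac
Of the 1686 windows of 28 bases (about a footprint) in either coding sequence, 1619 (96.0%) were identical in the other gene and 67 were not. HXT3 shared 363 of its 1677 windows (21.6%) with HXT6 and HXT7, HXT2 shared 12 of 1599 with any other gene, and RGT2 and SNF3 shared 0 of 2265 and 0 of 2628. The reads were mapped without mismatches, and how reads matching several genes were assigned is not given in the sources used here. The ratio of HXT6 to HXT7 RPKM stayed between 0.845 and 1.30 in the 12 mRNA libraries and between 0.8 and 1.09 in the 12 FP libraries. HXT6 and HXT7 are described as a pair below. Counts of members hold them as 2 genes, although their values are largely from shared sequence and are not independent.

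The upstream regions also differed among the members. Rgt1 binds a site with the core CGGANNA, and matches on both strands were counted in the 1000 bases before the start codon of the 6002 genes with a full window. HXT3 held 9 matches, a number reached by no other gene, while HXT2 and HXT6 held 3, HXT7 held 2, and RGT2 and SNF3 held 0. At least 1 match was present in 66.6% of genes and at least 3 in 11.2%. The stretches below show the densest matches of HXT3 (chrIV:1164972-1165205, minus strand, 7 matches) and the 3 matches of HXT2 (chrXIII:287489-287688, plus strand), with the matches in capitals on whichever strand they lie.
HXT3: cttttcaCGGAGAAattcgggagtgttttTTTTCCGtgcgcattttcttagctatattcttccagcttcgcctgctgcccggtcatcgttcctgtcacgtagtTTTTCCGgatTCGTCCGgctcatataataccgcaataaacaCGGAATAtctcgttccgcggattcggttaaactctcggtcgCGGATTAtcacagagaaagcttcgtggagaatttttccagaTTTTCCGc
HXT2: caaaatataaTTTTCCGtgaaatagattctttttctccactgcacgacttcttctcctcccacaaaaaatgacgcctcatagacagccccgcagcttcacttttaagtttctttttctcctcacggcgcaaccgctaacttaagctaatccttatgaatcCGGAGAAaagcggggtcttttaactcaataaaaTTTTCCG
A match is a run of letters and not a measured binding site.

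Depth differed between runs. Reads recovered from the steps in the RPKM values came to 1659974 to 5074427 for FP and 1532199 to 3476820 for mRNA in the first run, and to 8477007 to 24928332 and 22375159 to 39629438 in the second. SNF3 and RGT2 rested on few footprints, with 16 to 216 and 13 to 116 reads per library, against 51 to 16797 for the transporters. The WT cultures of the 2 runs differed in HXT3 and HXT2. HXT3 was at 323 RPKM in FP in the first run and 628 in the second, and HXT2 at 62.7 and 125, whereas HXT6 and HXT7 each differed by -0.03 on the log2 scale. Each log2 change to WT therefore rests on a single WT culture, while the contrasts among D1/8, D1/2/8/11 and D13 KLY195 have 2 cultures on each side.

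An FP library did not match its label. TRP1, the marker of the repair cassette, was at 303 and 301 RPKM in the mRNA of the 2 D13 KLY195 cultures and at 105 in the FP of replicate 2, but at 0.76 in the FP library labelled D13 KLY195 replicate 1, where D13 KLY196, which has no cassette, had 2.95. The FP profile of that library differed from D13 KLY196 by an SD of 0.28 on the log2 scale over 4276 genes, and from D13 KLY195 replicate 2 by 0.53. Results on D13 KLY195 are given with and without it. TRP1 was also at 0 in the mRNA of both D1/8 cultures although a trp cassette is listed for that strain. In D1/2/8/11, listed with the same cassette, TRP1 mRNA was at 374.5 and 358.2 RPKM. Whether D1/8 holds the listed CAK1 repair is therefore uncertain, and contrasts with D1/8 may include a difference in it. STE3, the receptor of MATalpha cells, was at 158 to 277 RPKM of mRNA in the D13 cultures and at 2.30 to 6.81 in all others, as their listed mating types have it. As density is computed within a culture, the FP library of D13 KLY195 replicate 1 is paired there with the mRNA library of that label.

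In WT the members spanned a wide range of expression. HXT3 was the most abundant of the 6, with 336 and 605 RPKM of mRNA in the 2 runs, followed by HXT2 (51.9 and 84.5), HXT6 (40.6 and 46.8), HXT7 (44.8 and 46.6), RGT2 (29.3 and 26.4) and SNF3 (12.1 and 12.6). HXT6 and HXT7 were not separable in that order, and in FP RGT2 (3.08 and 3.77) and SNF3 (3.61 and 3.90) overlapped over the 2 cultures. The transporters were densely occupied: their FP to mRNA ratio was 0.963 to 1.24 in the first run and 1.04 to 1.48 in the second, against medians of 0.489 and 0.676 over all genes with at least 5 RPKM of mRNA. The sensors lay at the other end. RGT2 had a ratio of 0.105 and 0.143, at percentiles 1.7 and 3.1 of these genes, and SNF3 had 0.299 and 0.310, at percentiles 24 and 10.1.

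**Figure D1:**
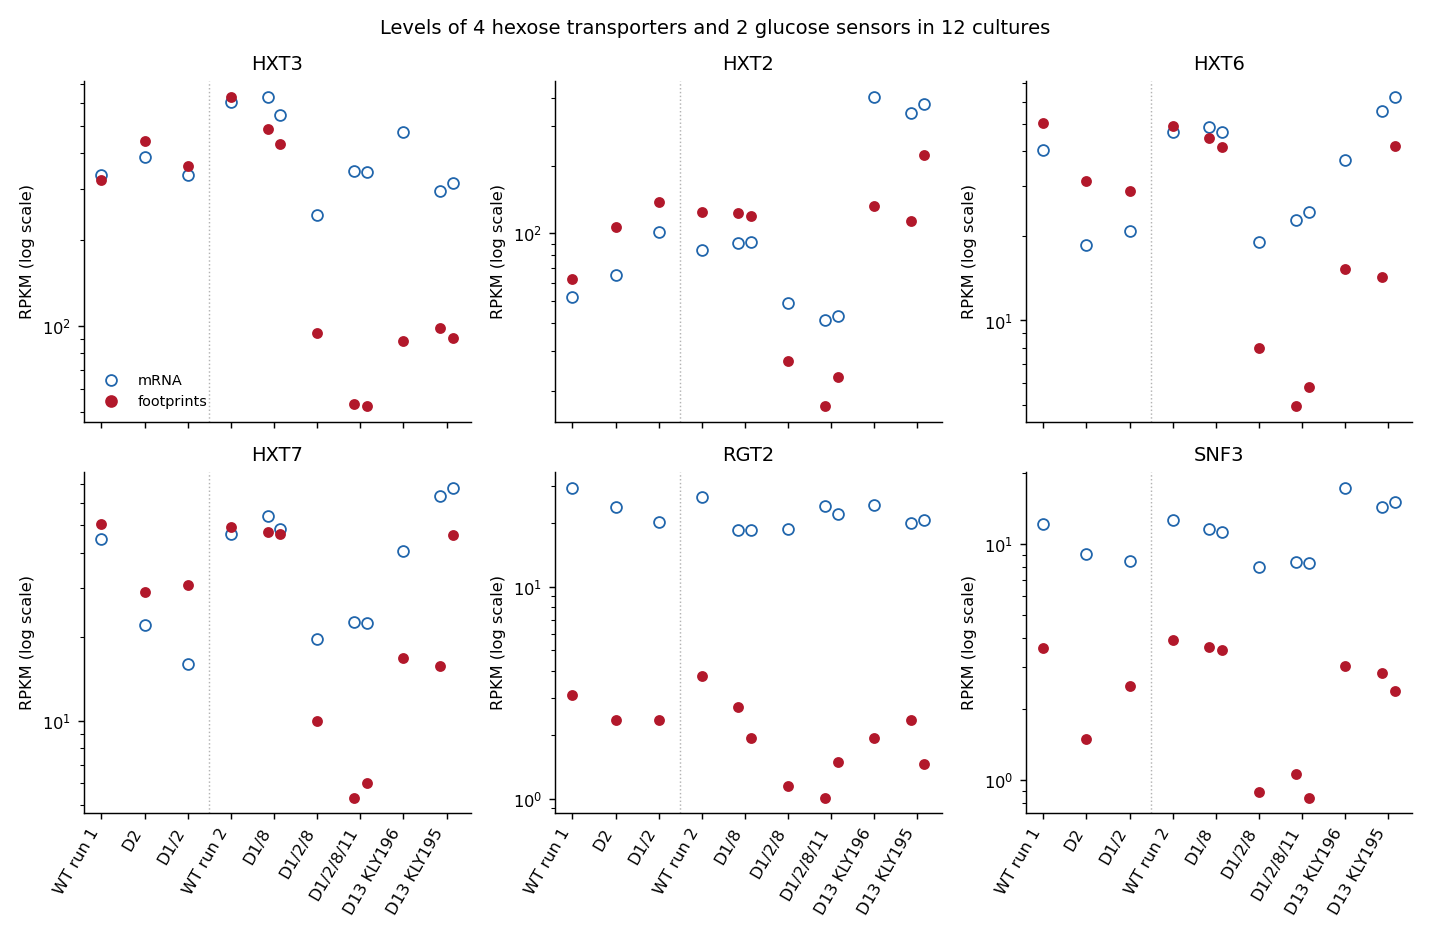
RPKM (log axis) of the 6 genes in each of the 12 cultures, open circles for mRNA and filled circles for footprints, with the first run left of the dotted line and replicate cultures side by side. Footprints of HXT3 lie at 323 to 628 in WT, D2, D1/2 and D1/8 and at 52.2 to 98.4 in D13, D1/2/8/11 and D1/2/8, and RGT2 shows the widest gap between mRNA and footprints in WT.

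Footprints of the members fell in D1/2/8/11 and D1/2/8, and in D13 HXT3 alone passed as lower. By limma's moderated test on log2(RPKM + 0.5), with Benjamini-Hochberg adjustment over 5027 genes, all 6 members were lower in D1/2/8/11 than in WT (19.4% of all genes were lower and 43.3% passed in either direction), with a median change of -2.82 against 0.10 over all genes. In all, 5 of 6 members, all but RGT2, were lower in D1/2/8 (15.0% of all genes lower). In D1/2/8/11 against D1/8, which have 2 cultures each, the same 5 were lower (21.9% of all genes lower). In D13 KLY195 against D1/8, 1 of 6 was lower (24.9% of all genes lower), and in D1/2/8/11 against D13 KLY195, 5 of 6 were lower, all but RGT2 (13.4%). In D13 KLY195 and D13 KLY196 against WT, 1 of 6 was lower (17.2% and 15.5% of all genes lower), and in these 3 comparisons that gene was HXT3. HXT6 and HXT7 changed by -1.66 and -1.54 in D13 KLY196 against WT without passing (adjusted p = 0.11 and 0.14). Their changes were -1.75 and -1.63 in the library labelled D13 KLY195 replicate 1, and -0.23 and -0.10 in replicate 2. No member passed in D1/8, D1/2 or D2 against WT (3.78%, 13.8% and 10.9% of all genes in either direction). Without the library labelled D13 KLY195 replicate 1, which also removes its spread from the pooled error, the counts against WT became 1 higher and 1 lower in D13 KLY195, 3 lower in D13 KLY196 and in D2, 1 higher and 2 lower in D1/2, 6 lower in D1/2/8 and 1 lower in D1/8 (44.6%, 41.8%, 30.9%, 34.4%, 43.7% and 13.8% of all genes in either direction).

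In mRNA the background of calls was high, so counts say little: 5 of 6 members were lower in D1/2/8/11 than in WT where 29.0% of 5432 genes were, 6 of 6 in D1/2/8 (30.0%), 4 of 6 in D2 and in D1/2 (28.3% and 28.9%), where HXT2 was higher (as were 32.2% and 32.1% of all genes), and 1 of 6 in D1/8 (18.9%). In D13 KLY195 3 members were higher and 2 lower (38.5% and 32.7% of all genes), and in D13 KLY196 2 were higher and 2 lower (36.0% and 30.6%). Between strains, 5 were lower and 1 higher in D1/2/8/11 than in D1/8 (33.5% and 43.5%), 1 lower and 4 higher in D13 KLY195 than in D1/8 (38.1% and 39.8%), and 4 lower and 1 higher in D1/2/8/11 than in D13 KLY195 (23.9% and 38.5%). Fold changes are on the log2(RPKM + 0.5) scale after each aneuploid library was shifted so that the median gene on its nonduplicated chromosomes matched WT, and this scale understates changes of genes at a few RPKM.

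HXT3, the low-affinity carrier, lost most of its footprints in both D13 strains, D1/2/8/11 and D1/2/8, while its mRNA fell less. Its FP level was 628 RPKM in WT of the second run, 485 and 431 in D1/8, 94.4 in D1/2/8, 53.3 and 52.2 in D1/2/8/11, 88.1 in D13 KLY196, and 98.4 and 90.5 in D13 KLY195. All values of D13, D1/2/8/11 and D1/2/8 were below those of WT and D1/8, with no overlap. In the first run it was 323 in WT, 443 in D2 and 362 in D1/2. Against D1/8, HXT3 footprints were 8.60-fold lower in D1/2/8/11 (log2 change -3.10, SE 0.12, adjusted p = 9.7e-05) and 4.82-fold lower in D13 KLY195 (-2.27, SE 0.12, adjusted p = 0.00016). Both passed in each of 14 alternative settings, with changes from -3.19 to -3.02 and from -2.35 to -2.18, and the latter was -2.33 without the doubtful library. D1/2/8/11 was also 1.78-fold below D13 KLY195 (-0.83, SE 0.12, adjusted p = 0.0026; -0.77 without that library).

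The mRNA of HXT3 moved less. It was at 605 RPKM in WT of the second run, 632 and 544 in D1/8, 244 in D1/2/8, 348 and 345 in D1/2/8/11, 475 in D13 KLY196 and 297 and 314 in D13 KLY195. The D1/8 cultures lay on either side of WT, and the other strains lay below both. The change against D1/8 was -0.76 in D1/2/8/11 (SE 0.067, adjusted p = 2.8e-07) and -0.94 in D13 KLY195 (SE 0.067, adjusted p = 2.9e-08). Ribosome density, the FP change minus the mRNA change of the same culture, was 5.09-fold lower in D1/2/8/11 than in D1/8 (-2.35, SE 0.13, adjusted p = 0.0022) and 2.52-fold lower in D13 KLY195 (-1.33, SE 0.13, adjusted p = 0.0025). Here 19.1% and 19.9% of all genes were lower. The density change in D13 KLY195 was -1.43 without the doubtful library. The ratio of FP to mRNA RPKM went from 1.04 in WT and 0.767 and 0.793 in D1/8 to 0.388 in D1/2/8, 0.153 and 0.152 in D1/2/8/11, 0.186 in D13 KLY196 and 0.332 and 0.288 in D13 KLY195.

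**Figure D2:**
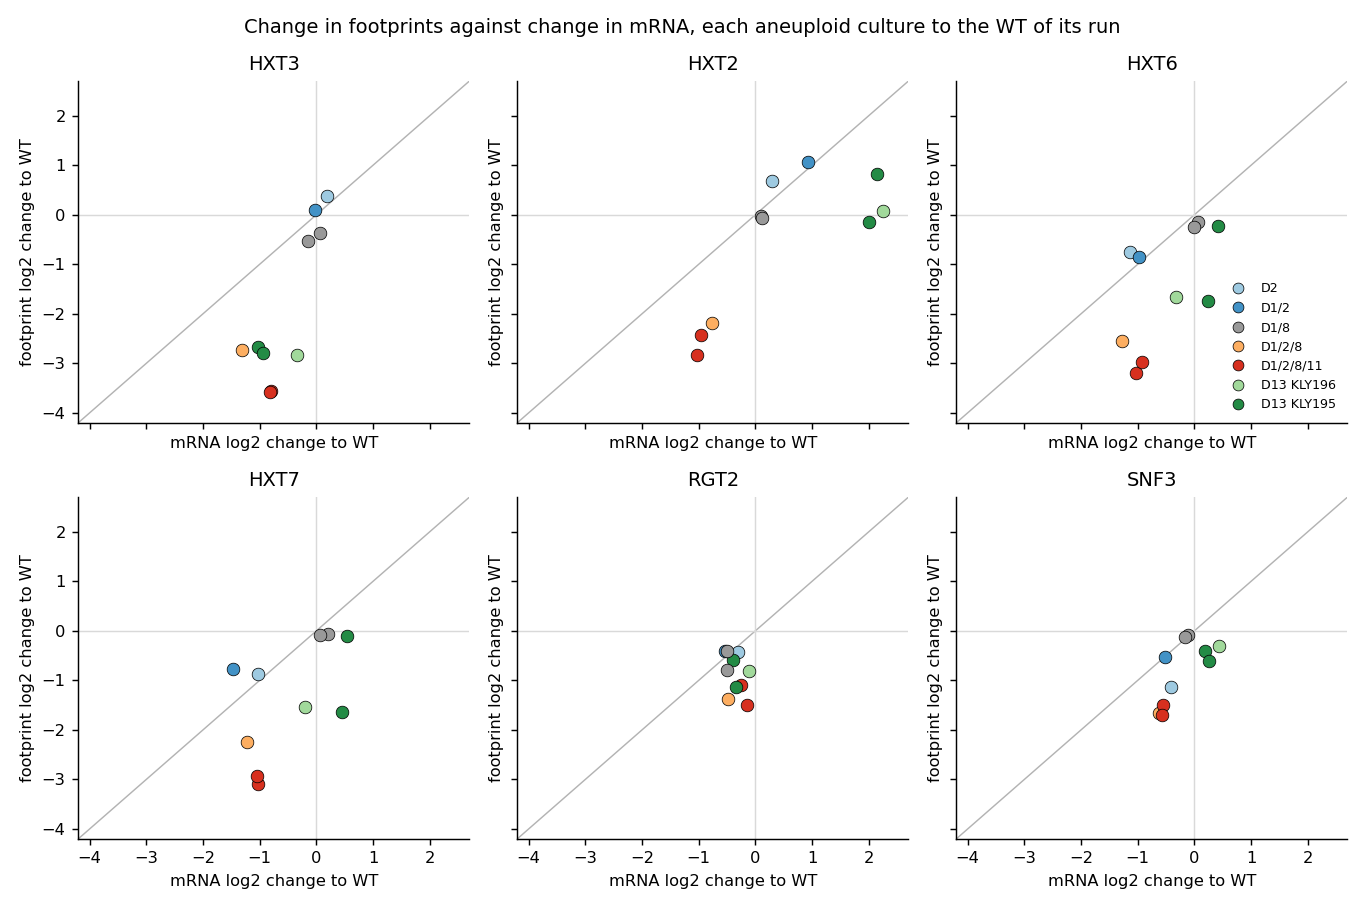
Log2 change of footprints (vertical axis) against log2 change of mRNA (horizontal axis) to the WT of the same run, a panel per gene and a point per aneuploid culture, with the diagonal marking equal change. D1/8 cultures lie near the origin for the transporters and SNF3, and most D13 cultures and those of D1/2/8/11 and D1/2/8 lie below the diagonal, with HXT2 of D13 at an mRNA change of 2.01 to 2.26.

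HXT2, a high-affinity carrier, went in opposite directions in D13 and D1/2/8/11. Its mRNA was at 84.5 RPKM in WT of the second run, 90.4 and 91.9 in D1/8, 49.2 in D1/2/8, 41.0 and 43.1 in D1/2/8/11, 406 in D13 KLY196 and 343 and 377 in D13 KLY195. The 3 D13 cultures stood above all others and the D1/2/8/11 and D1/2/8 cultures below WT and D1/8. D13 KLY195 exceeded D1/8 by 3.93-fold (log2 change 1.98, SE 0.062, adjusted p = 1.6e-11) and D1/2/8/11 was 2.15-fold below D1/8 (-1.11, SE 0.062, adjusted p = 3.3e-09). In the first run the level was 51.9 in WT, 65.2 in D2 and 101 in D1/2, and in D1/2 it passed against WT (0.93, SE 0.087, adjusted p = 1.3e-06), a change near the difference of 0.70 between both WT cultures.

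The rise of HXT2 mRNA in D13 exceeded that of its chromosome. The median gene of chromosome XIII rose by 0.95 in D13 KLY196 and by 1.00 and 1.01 in the 2 D13 KLY195 cultures (390 to 391 genes), where HXT2 rose by 2.26, 2.01 and 2.15. In those cultures 1, 5 and 2 genes of the chromosome rose more than HXT2. The excess over the chromosome median was 1.3, 1.02 and 1.14, where the SD over genes of the chromosome was 0.66, 0.75 and 0.74.

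Footprints of HXT2 did not follow in D13. They were at 125 RPKM in WT of the second run, 123 and 119 in D1/8, 27.0 in D1/2/8, 17.0 and 22.9 in D1/2/8/11, 132 in D13 KLY196, 113 in the library labelled D13 KLY195 replicate 1 and 223 in replicate 2. The D1/2/8/11 and D1/2/8 cultures were below all others, and the D13 values straddled WT. The log2 change to WT was 0.08, -0.14 and 0.83 in the D13 cultures, where the median gene of chromosome XIII changed by 0.88, 0.88 and 0.93. HXT2 footprints were 6.00-fold lower in D1/2/8/11 than in D1/8 (-2.58, SE 0.32, adjusted p = 0.0011, passing in 14 of 14 alternatives). Against D1/8, D13 KLY195 had a change of 0.39 (SE 0.32, adjusted p = 0.36), and 0.88 (adjusted p = 0.0087) without the doubtful library, so the call is made from replicate 2 alone. D1/2/8/11 lay 7.86-fold below D13 KLY195 (-2.98, SE 0.32, adjusted p = 0.0012; -3.46 without the library). Density fell in both: by 1.48 in D1/2/8/11 (SE 0.28, adjusted p = 0.012) and by 1.58 in D13 KLY195 (SE 0.28, adjusted p = 0.0091; -1.17 and adjusted p = 0.0069 without the library). The former did not pass without D1/2/8/11 replicate 1 (adjusted p = 0.075) or without D1/8 replicate 1 or 2 (0.083 and 0.076), and the latter without D1/8 replicate 1 or 2 (0.065 and 0.061). Among the 390 or 391 genes of chromosome XIII, 389 lay above HXT2 in density change in D13 KLY196 and in the library labelled D13 KLY195 replicate 1, and 367 in replicate 2.

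**Figure D3:**
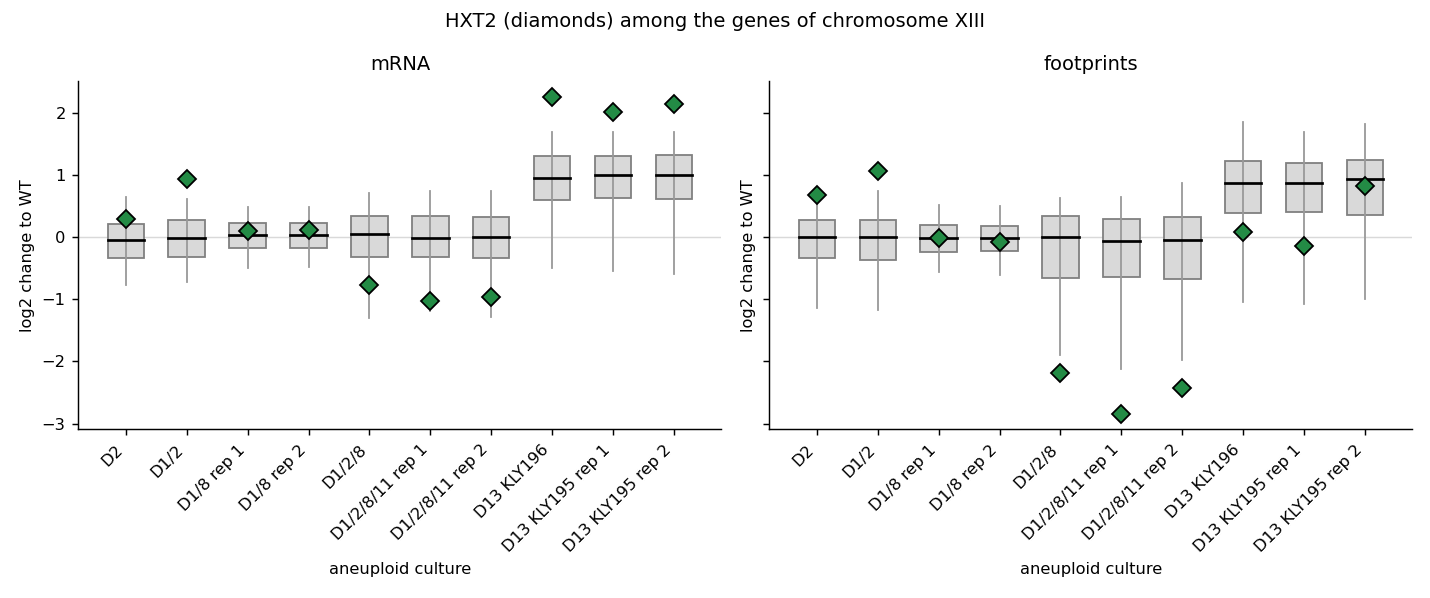
Log2 change to WT of the genes of chromosome XIII in each aneuploid culture, with boxes from the 25th to the 75th percentile, whiskers from the 5th to the 95th, a line at the median and HXT2 as a diamond. In D13 mRNA the diamond lies above the whisker at 2.01 to 2.26, and in footprints it lies at 0.83 or below.

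HXT6 and HXT7, the near-identical high-affinity carriers, had lower mRNA than WT in every strain with an extra chromosome II. HXT7 mRNA was at 44.8 RPKM in WT, 22.0 in D2 and 16 in D1/2 of the first run, and at 46.6 in WT, 54.0 and 48.5 in D1/8, 19.7 in D1/2/8, 22.5 and 22.4 in D1/2/8/11, 40.4 in D13 KLY196 and 63.9 and 68.1 in D13 KLY195 of the second. The cultures with an extra chromosome II lay below all others of their run. HXT6 values had the same pattern, at 18.6 to 24.3 RPKM in these strains and 37.4 to 62.7 in the others. HXT7 mRNA changed by -1.03 (SE 0.10, adjusted p = 2.4e-06) in D2 and by -1.48 (SE 0.10, adjusted p = 8.1e-08) in D1/2 against WT. In D1/2/8/11 against D1/8 it changed by -1.17 (SE 0.072, adjusted p = 7.8e-09). These strains share extra chromosomes I and VIII and differ in II and XI, and also in TRP1 mRNA, as given above. In D13 KLY196, without an extra chromosome II, HXT6 and HXT7 mRNA changed by -0.32 and -0.20 against WT, and HXT6 passed. The part of chromosome II was not tested. In D13 KLY195 both genes were a little higher than in D1/8, by 0.30 for HXT6 (SE 0.075, adjusted p = 0.0026) and 0.36 for HXT7 (SE 0.072, adjusted p = 0.00043).

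Footprints of HXT7 were at 49.5 RPKM in WT of the second run, 47.3 and 46.7 in D1/8, 10.0 in D1/2/8, 5.33 and 6.02 in D1/2/8/11, 16.8 in D13 KLY196, 15.7 in the library labelled D13 KLY195 replicate 1 and 46.2 in replicate 2. D1/2/8/11 lay lowest, and the D13 KLY195 libraries were on either side of D13 KLY196. HXT7 was 7.71-fold lower in D1/2/8/11 than in D1/8 (-2.95, SE 0.45, adjusted p = 0.0026) and HXT6 7.42-fold (-2.89, SE 0.45, adjusted p = 0.0028), both passing in 14 of 14 alternatives. D1/2/8/11 was also below D13 KLY195 (HXT7 -2.16, SE 0.45, adjusted p = 0.012; HXT6 -2.10, SE 0.45, adjusted p = 0.013), which did not pass without either D1/2/8/11 culture (adjusted p = 0.067 to 0.087). Against D1/8, D13 KLY195 did not pass with both libraries (HXT7 -0.79, SE 0.45, adjusted p = 0.20) and was at -0.02 without the doubtful one (adjusted p = 0.88) and past the threshold without replicate 2 (adjusted p = 0.00023). In the first run HXT7 footprints were at 50.4 in WT, 28.9 in D2 and 30.5 in D1/2, changes of -0.88 and -0.78 that did not pass (adjusted p = 0.41 and 0.44). They passed without either D13 KLY195 culture, whose disagreement widens the error (adjusted p = 0.0091 in D2 and 0.011 in D1/2 without replicate 1). Density fell by 1.78 for HXT7 (SE 0.43, adjusted p = 0.026) and 1.88 for HXT6 (SE 0.40, adjusted p = 0.018) in D1/2/8/11 against D1/8, and passed in 11 of 15 alternatives, being lost when any of the 4 cultures compared was left out (adjusted p up to 0.12 and 0.094).

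The sensors were expressed at lower levels than the transporters in WT. SNF3, the high-affinity sensor, had FP levels of 3.90 RPKM in WT of the second run, 3.67 and 3.55 in D1/8, 0.89 in D1/2/8, 1.06 and 0.84 in D1/2/8/11, 3.05 in D13 KLY196 and 2.83 and 2.38 in D13 KLY195. D1/2/8/11 and D1/2/8 did not overlap the other strains of that run. SNF3 footprints were 2.84-fold lower in D1/2/8/11 than in D1/8 (-1.51, SE 0.25, adjusted p = 0.0039), which passed in 12 of 13 alternatives and not without D1/8 replicate 1 (adjusted p = 0.051). Its mRNA changed by -0.43 in the same contrast (SE 0.088, adjusted p = 0.00064), from 11.6 and 11.2 RPKM to 8.38 and 8.32, and density by -1.08 (SE 0.18, adjusted p = 0.0082, and 0.079 without either D1/8 culture). In D13, SNF3 mRNA was 17.3, 14.4 and 15.1 RPKM, above every other culture, and in D13 KLY195 against D1/8 it passed (0.35, SE 0.088, adjusted p = 0.0025).

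RGT2, the low-affinity sensor, changed little in mRNA. Its mRNA was 26.4 RPKM in WT of the second run, 18.5 and 18.5 in D1/8, 18.7 in D1/2/8, 24 and 22.1 in D1/2/8/11, 24.4 in D13 KLY196 and 19.9 and 20.7 in D13 KLY195. All aneuploid cultures were below WT, and unlike the other 5 genes RGT2 mRNA was higher in D1/2/8/11 than in D1/8 (0.32, SE 0.074, adjusted p = 0.0017). Its FP level was 3.77 in WT, 2.72 and 1.94 in D1/8, 1.15 in D1/2/8, 1.01 and 1.49 in D1/2/8/11, 1.94 in D13 KLY196 and 2.35 and 1.45 in D13 KLY195. These values rest on 14 to 116 reads and overlap between D1/2/8/11 and D13 KLY195. The FP change in D1/2/8/11 was -1.3 against WT (SE 0.41, adjusted p = 0.044), which did not pass when either D1/2/8/11 culture or either D1/8 culture was left out, or with second-run cultures alone (adjusted p = 0.051 to 0.13), and -0.69 against D1/8 (SE 0.33, adjusted p = 0.14).

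In ribosome density, 5 of 6 members, all but RGT2, were lower in D1/2/8/11 than in WT and than in D1/8 (15.3% and 19.1% of all genes lower), 1 of 6 (HXT3) in D1/2/8 against WT (5.89%), and 2 of 6 (HXT2 and HXT3) in each D13 strain against WT (14.3% in KLY195 and 9.41% in KLY196). In D13 KLY195 against D1/8, 3 of 6 were lower (HXT2, HXT3 and SNF3, 19.9%). No member passed in D2 or D1/2 (3.14% and 6.47% of genes in either direction) or in D1/8, where no gene did by limma (354 at an unadjusted p under 0.05). In D1/2/8/11 against D13 KLY195 no gene passed either (678 at an unadjusted p under 0.05), although 61 did in the model without pairing by culture. Without the library labelled D13 KLY195 replicate 1, the numbers lower were 6 in D1/2/8/11 against WT and against D1/8, 5 in D1/2/8, D13 KLY195 and D13 KLY196 against WT, and 4 in D13 KLY195 against D1/8, and HXT7 was higher in D1/2. More genes in all were then lower too (24.5%, 25.5%, 15.2%, 20.3%, 19.1% and 22.4%, in that order). HXT6 and HXT7 were then also lower in D1/2/8/11 than in D13 KLY195 (-1.46 and -1.34, adjusted p = 0.025 and 0.038).

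The members share with many other genes the property of coding for membrane proteins, and the footprints of such genes moved in the same strains. The members contain 8 to 10 hydrophobic segments, counted as nonoverlapping windows of 19 residues with a mean hydropathy of at least 1.6. Among genes with at least 8 segments on nonduplicated chromosomes, the median FP change to WT was -1.88 in D1/2/8 (124 genes), -2.17 and -1.97 in D1/2/8/11, -1.59 in D13 KLY196 and -1.65 and -1.75 in D13 KLY195, against 0.10 to 0.16 for genes with no segment. This class was chosen with earlier results known. In D2, D1/2 and D1/8 it was between -0.11 and 0.04. The median mRNA change of the same genes was -0.63 to -0.90 in the former strains. HXT3 lay at the low end of this group, with 0 of 120 and 0 of 121 genes below it in the D1/2/8/11 cultures and 7 to 9 of 141 in D13. HXT6 had 6 or 7 genes and HXT2 20 or 28 below it in D1/2/8/11, while SNF3 and RGT2 had 76 to 108. HXT6 and HXT7 in the D13 KLY195 replicate 2 library had 136 and 137 of 141 genes below them. In density the group's median was -1.0 in D1/2/8, -1.25 and -1.14 in D1/2/8/11, -1.02 in D13 KLY196 and -0.9 and -0.98 in D13 KLY195. For genes with no segment it was -0.03 to 0.03. In D1/2/8/11, 0 or 1 gene lay below HXT3 in density, 2 to 29 below HXT2, HXT6 and HXT7, and 53 to 87 below the sensors. HXT2 lies on the duplicated chromosome in D13 and was left out of the group there (density changes of -2.18, -2.16 and -1.32). Whether the members' changes are separate from those of this group was not tested.

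**Figure D4:**
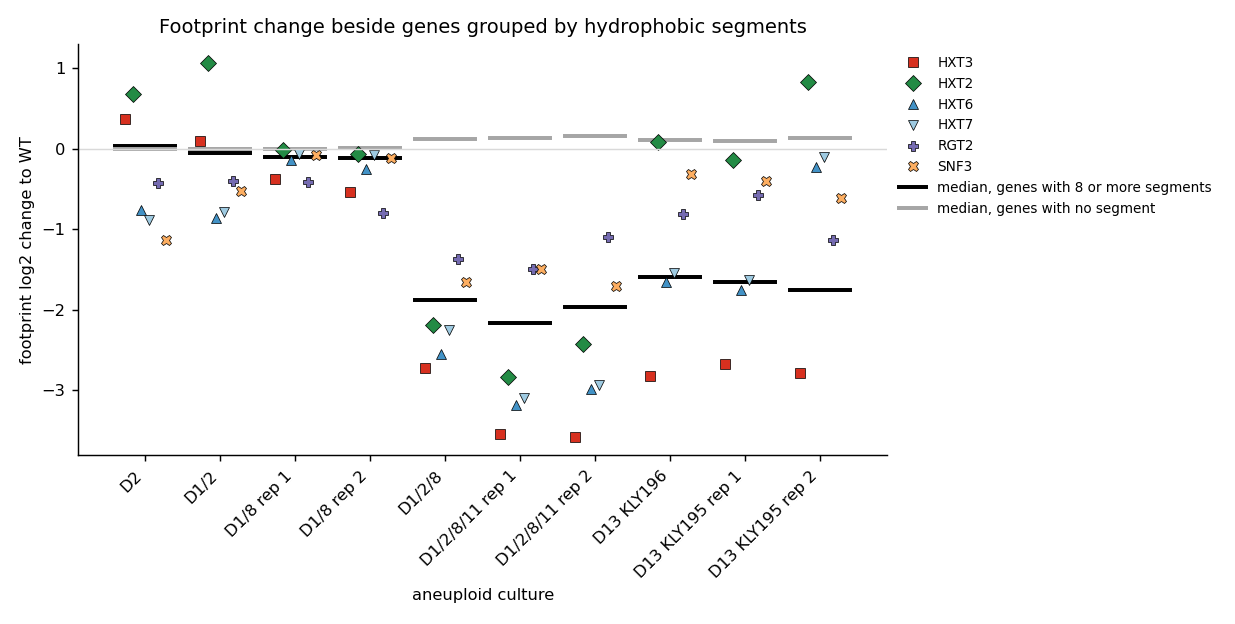
Log2 change of footprints to WT in each aneuploid culture for the 6 members (symbols), with black bars at the median of genes coding for at least 8 hydrophobic segments and grey bars at the median of genes with none. The black bars lie between -1.59 and -2.17 in D13, D1/2/8/11 and D1/2/8 and near 0 elsewhere, HXT3 lies below them in all 6 of those cultures and SNF3 and RGT2 above.

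The make-up of transporter expression differed between strains. Among a chosen set of 7 carriers (the 4 members with HXT1, HXT4 and HXT5), HXT3 accounted for 57.3% of summed FP RPKM in WT of the second run and HXT2 for 11.4%. In D1/2/8/11 the sum was 148 and 154 RPKM, where WT had 1097 and D1/8 964 and 880. HXT1 took 42.6% and 40.5% of the D1/2/8/11 sum against 35.9% and 33.8% for HXT3. HXT1 lies on chromosome VIII, duplicated in that strain, and its footprints did not rise there. They were at 63.1 and 62.6 RPKM, against 215 in WT of the second run (-1.76, SE 0.82, adjusted p = 0.13). In D13 KLY196 HXT2 made up 40.6% and HXT3 27.0% of a sum of 327, and in D13 KLY195 HXT2 made up 33.9% and 51.4% and HXT3 29.6% and 20.9%. HXT2 was thus above HXT3 in all 3 D13 FP libraries and in no other. In mRNA HXT2 exceeded HXT3 in both D13 KLY195 libraries (41.8% against 36.2% and 42.6% against 35.5%) and not in D13 KLY196 (35.9% against 41.9%).

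**Figure D5:**
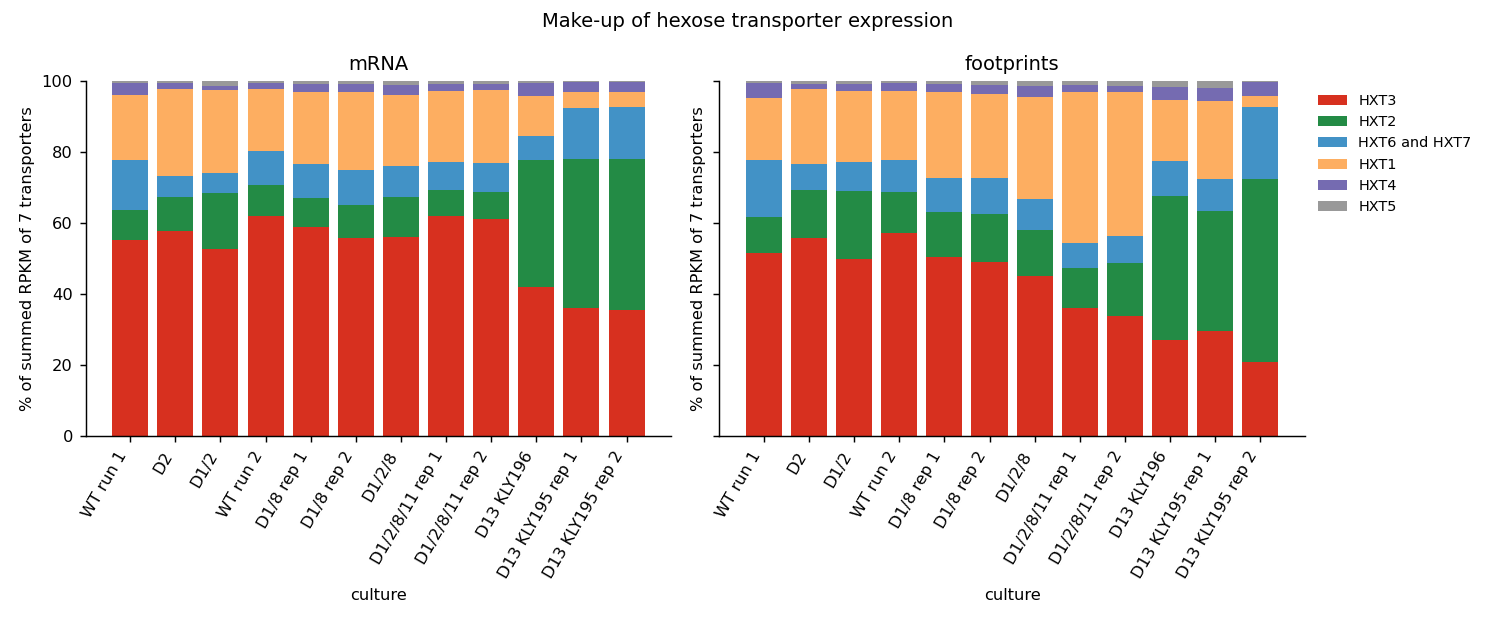
Stacked bars of the percentage of the summed RPKM of 7 hexose transporters in each culture, mRNA on the left and footprints on the right, with HXT6 and HXT7 drawn together. HXT3 takes 49.0% to 57.3% of footprints in WT, D2, D1/2 and D1/8 and 20.9% to 29.6% in D13, where HXT2 takes 33.9% to 51.4%.

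Of 13 other hexose transporter genes in the data, 4 passed the filter in FP and 6 in mRNA. In FP, 1 of the 4 was lower in D1/2/8/11 than in WT and 0 in D13 KLY195 (19.4% and 17.2% of all genes), and the list's median change was -1.66 and -0.89, against 0.10 and 0.04 over all genes. The gene lower in D1/2/8/11 was HXT4, a carrier on chromosome VIII, which that strain carried in an extra copy (-2.89, SE 0.23, adjusted p = 0.00057), and it is named here after its value was seen. HXT1, the other main low-affinity carrier, is also on chromosome VIII. Its FP levels were 215 RPKM in WT of the second run, 72.7 and 14.0 in the 2 libraries labelled D13 KLY195 and 56.6 in D13 KLY196. Its mRNA levels were 170 in that WT, 35.1 and 35.8 in D13 KLY195 and 126 in D13 KLY196. HXT1 mRNA was lower in D13 KLY195 than in WT (-2.24, SE 0.066, adjusted p = 2.6e-11). Its FP change was -2.72 against WT (SE 0.82, adjusted p = 0.053). Against D1/8, which carried an extra chromosome VIII, it was -2.76 (SE 0.67, adjusted p = 0.018). Both FP changes include the doubtful library, where HXT1 was at 72.7 RPKM against 14.0 in replicate 2.

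Of 17 glucose signalling genes, all of which passed the filter, 3 were higher and 1 lower in FP in D1/2/8/11 against WT, and 3 were higher and 0 lower in D13 KLY195, with median changes of 0.32 and 0.22. Over all genes 23.9% were higher and 19.4% lower in D1/2/8/11, and 10.7% higher and 17.2% lower in D13 KLY195, so the count in D1/2/8/11 was not above the background. MTH1, the corepressor degraded in glucose, was the gene of this list that passed in both strains. Its FP level was 8.47 RPKM in WT of the second run, 4.85 and 4.70 in D1/8, 8.00 in D1/2/8, 4.21 and 3.77 in D1/2/8/11, 21.0 in D13 KLY196 and 30.9 and 25.6 in D13 KLY195, and the D13 cultures stood above all others. Against WT it changed by 1.68 in D13 KLY195 (SE 0.20, adjusted p = 0.0018) and by -1.0 in D1/2/8/11 (SE 0.20, adjusted p = 0.0093). Against D1/8 the change was 2.44 in D13 KLY195 (SE 0.16, adjusted p = 0.00019). In D1/2/8/11 against D1/8 it was -0.23 and did not pass (SE 0.16, adjusted p = 0.29). In the first run MTH1 footprints were lower in D2 (-1.94, SE 0.23, adjusted p = 0.010) and D1/2 (-1.6, SE 0.23, adjusted p = 0.011). The other genes that passed in D13 KLY195 were HXK1 and GLK1, which code for a hexokinase and glucokinase, with changes of 2.85 (SE 0.29, adjusted p = 0.0011) and 1.69 (SE 0.38, adjusted p = 0.018). HXK1 was at 102 RPKM in WT of the second run and at 581 and 936 in the libraries labelled D13 KLY195, and GLK1 at 274 against 621 and 1258. In D1/8 HXK1 was at 239 and 197 and GLK1 at 671 and 622. Against D1/8, D13 KLY195 changed by 1.76 in HXK1 (SE 0.23, adjusted p = 0.0015) and by 0.45 in GLK1 (SE 0.31, adjusted p = 0.28), so the GLK1 rise was not particular to D13. In D2 HXK1 and GLK1 footprints changed by -3.21 and -2.15, and in D1/2 by -2.79 and -1.51. HXK1 and GLK1 are named after their values were seen.

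YCK1, CYC8 and TUP1 passed as higher against WT in D1/2/8/11 and not in D13 KLY195, and were also named after their values were seen. YCK1 (1.04, SE 0.15, adjusted p = 0.0027), on the duplicated chromosome VIII, codes for a casein kinase of this pathway. The corepressor genes were CYC8 (0.73, SE 0.19, adjusted p = 0.023), on the duplicated chromosome II, and TUP1 (0.66, SE 0.15, adjusted p = 0.013). In D1/2/8 the changes of YCK1, CYC8 and TUP1 were 1.09, 0.93 and 0.69, so the rise was not particular to D1/2/8/11. YCK1 was also higher by 0.89 in D1/8, which carried an extra chromosome VIII. YCK2, another gene of this list, changed by -0.08 in D1/2/8/11 (adjusted p = 0.68). TUP1 mRNA went the other way, at 84.4 RPKM in WT of the second run, 29.9 and 21.7 in D1/2/8/11 and 15.1 and 14.5 in D13 KLY195 (changes of -1.71 and -2.47, adjusted p = 1.4e-07 and 5.4e-09).

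STD1 codes for the corepressor related to Mth1. STD1 footprints changed by 0.02 in D1/2/8/11 and -0.07 in D13 KLY195 (adjusted p = 0.91 and 0.73). RGT1, on chromosome XI, changed by 0.59 in D1/2/8/11, where that chromosome was duplicated, and by -0.28 in D13 KLY195 (adjusted p = 0.17 and 0.54). In mRNA STD1 rose by 0.58 and 0.46 in the 2 strains (adjusted p = 7.6e-06 and 6.6e-05), and RGT1 rose by 0.44 in D1/2/8/11 and fell by 0.62 in D13 KLY195 (adjusted p = 0.00073 and 4.1e-05). Of 10 genes repressed by glucose, 8 passed the FP filter, of which 2 were higher and 1 lower in D1/2/8/11 and 1 was higher in D13 KLY195, which is near the shares over all genes given above. HAP4, the activator of respiration genes, on chromosome XI, was higher in both (1.77, SE 0.34, adjusted p = 0.0079, and 1.63, SE 0.34, adjusted p = 0.014). The list's median was 0.32 and 0.14.

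The genes whose FP changes were most like those of each member over the 10 aneuploid cultures were sought among 3479 genes with at least 10 RPKM in every FP library. For HXT3 they were NFS1, YBT1 and CPS1 (Pearson r of 0.995, 0.995 and 0.993). NFS1 codes for the mitochondrial cysteine desulfurase, YBT1 for a vacuolar transporter and CPS1 for a vacuolar carboxypeptidase. NFS1 changed by -2.02 and -1.82 in D1/2/8/11 and CPS1 by -3.18 and -3.11. For HXT2 the closest was USA1 (r of 0.962), which codes for a scaffold of the HRD1 ubiquitin ligase in the endoplasmic reticulum, followed by ALO1 and MDH2 (both 0.955). For HXT6 and HXT7 TIR3, a cell wall mannoprotein, and NDE1, a mitochondrial NADH dehydrogenase, were closest (0.972 and 0.967 for HXT6, 0.963 and 0.965 for HXT7), with SUR7 (0.950) and PRC1 (0.946) next. For RGT2 they were CAN1, the arginine permease (0.940), NGL1 (0.923) and EFR3 (0.912), and for SNF3 GPA2 (0.951), NCE102 (0.941) and FET4 (0.935). The cultures share WT references and include replicate pairs, so these coefficients are a description.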

How the data were processed

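Total mRNA and footprint libraries of each culture were made from the same lysate, which had been cleared by centrifugation, after cycloheximide treatment. The authors trimmed reads with Cutadapt, mapped them to sacCer3 mRNAs with Bowtie allowing no mismatch (versions not given in the sources used here), and deposited RPKM over coding sequences. The paper describes a rescaling of RPKM to the euploid strain on nonduplicated chromosomes, as given above. The smallest value above 0 corresponded to 4 reads, and blanks were set to 0. Groups came from the sample labels, and genotypes from the study's strain list.

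From the RPKM, log2(RPKM + 0.5) was shifted per library on nonduplicated chromosomes and tested with limma 3.58.1 in R 4.3.3 (trended eBayes, 1 coefficient per strain and run, two-sided, adjusted p under 0.05 by Benjamini-Hochberg). The spread was estimated from the 3 strains with 2 cultures (3 residual degrees of freedom), and single cultures are assumed to vary like them. Replicates are separate cultures, so p-values measure the spread between cultures. The steps of the RPKM values gave read numbers, with 92.3% to 99.1% of values of up to 50 reads within 0.05 of a whole number. Precision is limited for genes with few reads, and read numbers carry counting error only. Sequences were taken from RefSeq R64, the same build. Of 6061 ORFs, 5639 had a coding sequence there. The test was checked on simulated data. The members and gene lists were chosen with earlier results of these data known. By rule, genes of other lists were named where they passed in FP against WT in both D1/2/8/11 and D13 KLY195, up to 3 per list and direction, with MTH1, STD1 and RGT1 in any case. Outside this rule HXT1, HXT4, HXK1, GLK1, YCK1, CYC8 and TUP1 were named after their values were seen.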

Additional observations from a re-analysis of the deposited data

Results flagged for a closer look

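Effects against WT had opposite signs in a pair of strains, and the direct contrast of those strains passed limma's test, for 9 results. In mRNA of D1/2/8/11 against D1/8, HXT2 differed by -1.11 (-1.0 and 0.11 against WT, adjusted p = 3.3e-09), HXT6 by -1.01 (-0.98 and 0.03, adjusted p = 5e-08) and HXT7 by -1.17 (-1.03 and 0.14, adjusted p = 7.8e-09). The effects in D1/8 did not pass on their own, so their sign is uncertain. SNF3 density in the same contrast differed by -1.08 (-1.04 and 0.04, adjusted p = 0.0082). In mRNA of D1/2/8/11 against D13 KLY195, HXT2 differed by -3.08 (-1.0 and 2.08, adjusted p = 7.2e-13), HXT6 by -1.31 (-0.98 and 0.33, adjusted p = 4.1e-09), HXT7 by -1.53 (-1.03 and 0.50, adjusted p = 9e-10) and SNF3 by -0.78 (-0.56 and 0.22, adjusted p = 3.5e-06). HXT2 footprints in that contrast differed by -2.98 (-2.63 and 0.34, adjusted p = 0.0012), and HXT2 lies on the chromosome duplicated in D13. In D13 KLY195 against WT the HXT2 footprint change (adjusted p = 0.56, and -0.14 without replicate 2) and the SNF3 mRNA change (adjusted p = 0.084) did not pass, so an opposite sign there was not shown. No group had 4 or more samples, so single cultures were not tested as outliers.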

How the results depend on the processing

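Of the members' results under all alternatives, 2335 kept direction and side of the threshold, 73 came to pass and 79 no longer passed. A further 44 without a test moved and 15 changed sign. Taking the mean of both WT cultures as reference accounted for 40 of those that moved and 2 of the sign changes. Only 42 results stayed the same under it, so the members' changes depend on the WT culture used. Of the sign changes, 13 concerned changes that had not passed. SNF3 density in D1/2 became 0.07 with a pseudocount of 2 and 0.04 without the shift, RGT2 density in D1/8 0.06 with that pseudocount and 0.10 without D1/8 replicate 2 (-0.30 without replicate 1), and SNF3 density in D1/2/8/11 against D13 KLY195 0.05 with that pseudocount. HXT3 mRNA became 0.00 in D1/2 without the shift and 0.06 in D1/8 without replicate 2 (-0.15 without replicate 1). HXT2 density in D1/2/8/11 against D13 KLY195 became -0.06 without D1/2/8/11 replicate 2 and -0.31 without D13 KLY195 replicate 1 (0.52 without replicate 2). Without D13 KLY195 replicate 2, HXT2 FP became -0.14 against WT and -0.10 against D1/8, RGT2 FP 0.02 against D1/8, and HXT7 density in D1/2/8/11 against D13 KLY195 0.09, where leaving out replicate 1 in its place gave 0.83, 0.88, -0.53 and -1.34. With the mean of both WT cultures as reference, HXT2 mRNA in D2 became -0.04 and HXT3 mRNA in D13 KLY196 0.08, from changes of 0.30 and -0.35 that had passed.

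Counts of genes passing in density with an interaction model without pairing by culture were 815 in D1/2, 883 in D1/2/8, 1257 in D13 KLY196, 611 in D2 and 61 in D1/2/8/11 against D13 KLY195, where the main counts were 325, 394, 656, 158 and 0. With a mean RPKM of at least 10 they were 201 in D1/2, 72 in D2 and 1 in D1/2/8/11 against D13 KLY195, and with a pseudocount of 2 the latter was 8. Without a filter 183 passed in D1/2/8 density and 102 in D1/8 FP (190 in the main fit).

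Leaving out each culture of the replicated strains in turn gave, in FP against WT, 84 to 1557 genes in D2, 215 to 1735 in D1/2, 794 to 2200 in D1/2/8, 1516 to 2912 in D1/2/8/11, 0 to 696 in D1/8, 810 to 2097 in D13 KLY196 and 1044 to 2237 in D13 KLY195. Between strains it gave 1249 to 3039 in D1/2/8/11 against D1/8, 1154 to 2721 in D13 KLY195 against D1/8 and 1136 to 2548 in D1/2/8/11 against D13 KLY195. In density the ranges against WT were 26 to 700, 63 to 1029, 0 to 1124, 415 to 1981, 0 to 0, 0 to 1568 and 364 to 1775 in the same order, and 232 to 2217, 309 to 2074 and 0 to 433 between strains. Leaving out a culture also takes its pair out of the pooled spread, which was widest in D13 KLY195 (SD of the log2 ratio between FP replicates 0.57, against 0.34 in D1/2/8/11 and 0.19 in D1/8).

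Replicate numbers did not pair the cultures (correlation of deviations -0.07 to 0.12 in FP and -0.05 to 0.22 in mRNA), and the replicate block changed no member's call.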
